A study of Mus musculus with 25 samples.

Results

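The genes described here are 30 genes of cholesterol and fatty acid synthesis, chosen as a list by symbol from a raw count table of 24984 mouse genes. No cut on an expression value set the list, but it was chosen with earlier results of these data known. By their roles they fall into 7 genes of the mevalonate branch, 11 of the squalene and sterol branch, 4 regulators or transport genes and 8 of fatty acid synthesis. All 30 were found in the table, all had counts in these cells, and all passed the filter on low counts in every comparison. Levels are given as CPM, the count of a gene divided by the library's total in units of 1e6 counts, scaled across all 25 libraries, and since CPM is not divided by transcript length, levels are compared between samples for 1 gene and not between genes.

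The cells were BMEL cells, bipotential mouse embryonic liver cells that can form hepatocytes or bile duct cells, of 1 clonal line from a C57BL/6 x C3H embryo. They grew on collagen in medium with fetal calf serum, insulin, IGFII and EGF and were harvested while dividing exponentially. The 3 control cultures carried the empty vector according to the sample labels, and 3 RasLOW and 3 RasHIGH cultures carried a vector for oncogenic human H-Ras (HRasG12V) with a fluorescent reporter on the same transcript. RasLOW and RasHIGH are populations sorted on reporter fluorescence and not clones, so the Ras levels of single cells in them can overlap. Transformed cells were injected into the liver of athymic nude mice, which lack T cells and keep other leukocytes, including NK cells. From tumours of the liver and of the peritoneum of 4 mice, tumour cells with Venus fluorescence and stromal cells without it were sorted after dissociation, giving 4 libraries for each of liver tumour cells, peritoneal tumour cells, liver stroma and peritoneal stroma. The sample labels do not say which Ras population gave the tumours, and the age of the mice is not given in the sources used here.

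Cholesterol is built from acetyl-CoA, first along the mevalonate branch to farnesyl diphosphate, then through squalene and lanosterol to the sterols. Fatty acid synthesis starts from the same acetyl-CoA, which Acly makes from citrate and Acss2 from acetate, and runs through Acaca and Fasn to elongation and desaturation. Transcription of both pathways is controlled by the SREBP factors, encoded by Srebf1 and Srebf2, which Scap carries out of the endoplasmic reticulum when sterols are scarce and which Insig1 retains there when sterols are plentiful. Insig1 is itself an SREBP target, and the liver is a main site of both pathways in the body.

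Total counts were between 20818989 and 51241336 per library, and 3 counts corresponded to 0.0572 to 0.143 CPM. The correlation of log2(CPM + 1) between libraries of 1 group was between 0.984 and 0.998. The mouse gene Hras was at 79.9 ± 7.93 CPM in control, 77.9 ± 28.0 CPM in RasLOW and, at 66.9 ± 15.2 CPM, lowest in RasHIGH (SD, n = 3 each), which does not check the labels because the transgene is human. Summed markers of hepatic progenitor or biliary epithelium were between 7174 and 11381 CPM in cultures and tumour cells and between 1216 and 2659 CPM in stroma. Keratin genes Krt8, Krt18 and Krt19 made up most of that sum, and Epcam, another marker of the list, was at 0 to 0.8292 CPM in cultures and tumour cells and at 3.13 to 6.57 CPM in stroma. Control cultures 1 and 2 were sequenced on lane 3, control 3 and all Ras cultures on lane 4, and the tumour libraries on lanes 1 to 3.

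The windows before the transcription start were described by short sequence motifs. RefSeq (GRCm38.p6) gave 30 starts for 24 of the 30 genes, since some genes have several, and the 250 bases before each were searched on both strands for 4 motifs: the sterol element TCACNCCAC bound by SREBP factors, the NF-Y box CCAAT, the E-box CACGTG and the Sp1 box GGGCGG, none of which contains another. A gene was counted where any of its windows held the motif. The NF-Y box was present in 20 of the 24 genes (83.3%), against 37.5% of all 27025 genes, or in 21 of the 30 windows against 33.9% of all 32851 windows. The Sp1 box was also present in 20 of 24 genes (83.3%), against 35.4% of all genes, or in 22 of 30 windows against 32.7%. The E-box was found in 4 of 24 genes (16.7% against 6.86% of all genes) and the sterol element in 1 of 24 (4.17% against 1.22%). The 27025 genes include genes that did not pass the filter on low counts here. The share among genes that passed it was not computed, so these shares do not set the 30 genes apart from other expressed genes. NF-Y and Sp1 are known partners of SREBP factors, and a match of letters is a description and not a bound site. The windows printed are of the 4 genes with such an entry called in the most comparisons. Ties went to the larger mean absolute log2 fold change over those calls. The Hmgcs1 window was added after the search, because it held the sterol element. Capitals mark the motif matches on either strand, and every window reads 5′ to 3′ along its gene.
Pmvk, chr3:89454291-89454540, plus strand: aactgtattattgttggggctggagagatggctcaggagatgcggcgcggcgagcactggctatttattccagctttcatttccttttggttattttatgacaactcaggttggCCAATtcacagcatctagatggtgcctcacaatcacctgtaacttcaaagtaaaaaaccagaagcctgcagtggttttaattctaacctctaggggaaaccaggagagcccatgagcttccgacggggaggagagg
Msmo1, chr8:64733579-64733828, minus strand: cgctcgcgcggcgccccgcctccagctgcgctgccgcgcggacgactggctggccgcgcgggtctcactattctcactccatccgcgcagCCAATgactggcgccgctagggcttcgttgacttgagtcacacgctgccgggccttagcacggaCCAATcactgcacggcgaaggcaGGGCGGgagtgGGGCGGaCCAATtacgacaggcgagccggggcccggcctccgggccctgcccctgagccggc
Elovl6, chr3:129532136-129532385, plus strand: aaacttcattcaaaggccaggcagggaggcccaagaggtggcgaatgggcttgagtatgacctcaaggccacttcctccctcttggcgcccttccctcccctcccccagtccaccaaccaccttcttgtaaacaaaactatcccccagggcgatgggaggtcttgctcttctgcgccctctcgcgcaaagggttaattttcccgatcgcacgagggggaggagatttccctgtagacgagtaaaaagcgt
Insig1, chr5:28071162-28071411, plus strand: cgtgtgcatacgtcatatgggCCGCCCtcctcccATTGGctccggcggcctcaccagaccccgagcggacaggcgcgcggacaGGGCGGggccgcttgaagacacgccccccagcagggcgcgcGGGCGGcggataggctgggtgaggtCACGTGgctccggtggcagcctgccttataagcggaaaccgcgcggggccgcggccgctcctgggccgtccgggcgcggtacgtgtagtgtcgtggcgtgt
Hmgcs1, chr13:119690101-119690350, plus strand: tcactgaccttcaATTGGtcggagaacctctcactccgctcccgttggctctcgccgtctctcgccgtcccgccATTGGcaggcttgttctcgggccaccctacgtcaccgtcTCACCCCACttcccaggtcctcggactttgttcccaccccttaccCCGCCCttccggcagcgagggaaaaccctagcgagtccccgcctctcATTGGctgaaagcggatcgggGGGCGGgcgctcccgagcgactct
The Insig1 window held 1 NF-Y box, 1 E-box and 3 Sp1 boxes, that of Msmo1 3 NF-Y boxes and 2 Sp1 boxes, the Pmvk window printed 1 NF-Y box while the window of its other start held none of the 4 motifs, and that of Elovl6 none of the 4 motifs. The Hmgcs1 window held the sterol element together with 3 NF-Y boxes and 2 Sp1 boxes. These genes differed in their levels, with Elovl6 lower and Insig1 not lower in tumour cells than in cultured Ras cells.

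Cultured RasHIGH cells held more RNA of a part of the 30 genes than control cells, with the largest called differences at Insig1, Scd1 and Fdps. Of the 30 genes, 12 were higher and 0 lower at an adjusted p under 0.05, where 10.9% of all genes tested were higher and 11.7% lower. The 12 were 5 of 7 mevalonate genes, 4 of 11 squalene and sterol genes, 1 of 4 regulators and 2 of 8 fatty acid genes. The median log2 fold change of the 30 genes was 0.81, beside -0.02 over all genes tested. In 19 genes every RasHIGH culture was above every control culture, in 1 every one was below, and in 10 the groups overlapped. The share of all genes with such separate groups is not given here or below, so these counts describe the 30 genes only. RasLOW and RasHIGH were compared with the same 3 control cultures.

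**Figure D1:**
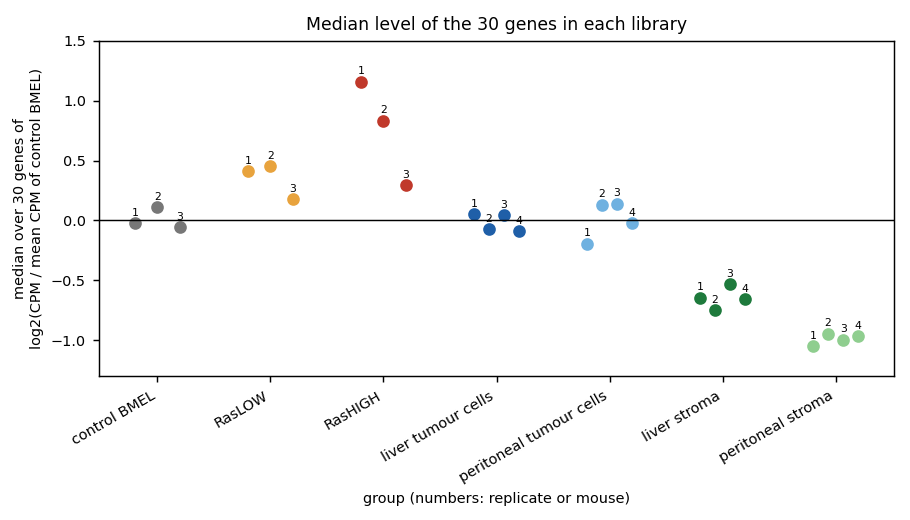
Median over the 30 genes of log2(CPM divided by the mean control CPM) in each library, by group, with points numbered by culture or mouse. The RasHIGH cultures lie at 1.16, 0.83 and 0.29, the tumour cells between -0.19 and 0.14, and the stroma between -1.05 and -0.53.

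Insig1, which holds SREBP factors in the endoplasmic reticulum, was at 35.2, 44.9 and 37.4 CPM in control cultures 1 to 3 and at 272, 200.1 and 65.2 CPM in RasHIGH cultures 1 to 3. The groups did not overlap, and RasHIGH 3 was far below the other two RasHIGH cultures. The log2 fold change was 2.15 ± 0.46 (SE, adjusted p = 0.0168). Srebf1 was at 118, 115 and 154 CPM in control and 149.6, 167 and 116 CPM in RasHIGH cells, overlapping groups with a log2 fold change of 0.12 ± 0.18 (SE, adjusted p = 0.687). Srebf2 was at 288, 266 and 286 CPM in control and 576, 412 and 308 CPM in RasHIGH cells, higher in every RasHIGH culture without passing the test (log2 fold change 0.59, adjusted p = 0.0966). Stard4, which moves sterols between membranes, was at 59.5 ± 12.3 CPM in control and 84.8 ± 19.7 CPM in RasHIGH cells (SD, n = 3 each), and did not pass either.

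Among mevalonate genes, Fdps, which makes farnesyl diphosphate, had the largest change. It was at 57.2, 80.7 and 71.6 CPM in control and 302, 244 and 132 CPM in RasHIGH cultures, with no overlap and a log2 fold change of 1.66 ± 0.30 (SE, adjusted p = 0.00872). Mvd, the mevalonate diphosphate decarboxylase, was at 15.2, 14.7 and 13.7 CPM in control and 56.1, 33.1 and 19.1 CPM in RasHIGH cultures. It rose by 1.27 ± 0.35 on the log2 scale (SE, adjusted p = 0.0413), and RasHIGH 3 was again the lowest of its group. Pmvk, the phosphomevalonate kinase, rose by 1.13 (adjusted p = 0.0178), Hmgcs1, the HMG-CoA synthase, by 1.10 (adjusted p = 0.0257) and Acat2, the cytosolic acetoacetyl-CoA thiolase, by 1.06 (adjusted p = 0.00853). The isomerase Idi1, at 76.0 ± 21.5 CPM in control and 115 ± 20.5 CPM in RasHIGH cells, and the mevalonate kinase Mvk, at 19.1 ± 2.77 and 26.8 ± 6.86 CPM (SD, n = 3 each), did not pass.

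In the squalene and sterol branch, Cyp51, the lanosterol demethylase, was at 87.0, 95.5 and 75.9 CPM in control and 311, 203 and 136 CPM in RasHIGH cultures. The groups were separate and the log2 fold change was 1.29 ± 0.28 (SE, adjusted p = 0.0175). Msmo1, a methylsterol oxidase, rose by 1.04 (adjusted p = 0.0433), the squalene synthase Fdft1 by 1.03 (adjusted p = 0.0337) and the squalene epoxidase Sqle by 0.90 (adjusted p = 0.0313). The lanosterol synthase Lss was at 47.0 ± 5.55 CPM in control and 95.8 ± 40.4 CPM in RasHIGH cells (SD, n = 3 each) and missed the threshold with a log2 fold change of 0.99 (adjusted p = 0.0539). Nsdhl, Sc5d, Dhcr7, Tm7sf2, Ebp and Hsd17b7, which act on sterols after lanosterol, did not pass. Their means in RasHIGH cells ran from 20.6 CPM for Tm7sf2 to 87.6 CPM for Ebp, and Hsd17b7, at 25.6 ± 6.43 CPM in control and 20.95 ± 3.38 CPM in RasHIGH cells (SD, n = 3 each), had a negative log2 fold change of -0.33 (adjusted p = 0.342).

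In fatty acid synthesis, the desaturase Scd1 was at 13.5, 30.9 and 50.2 CPM in control and 181, 124 and 55.7 CPM in RasHIGH cultures. Control 3 and RasHIGH 3 lay close together, and the log2 fold change was 1.89 ± 0.55 (SE, adjusted p = 0.0469). Elovl6, which elongates palmitate, rose by 0.84 (adjusted p = 0.0221). Scd2, the second desaturase, was at 441, 569 and 1084 CPM in control and 2105, 1978 and 1080 CPM in RasHIGH cultures, overlapping groups that did not pass (log2 fold change 1.26, adjusted p = 0.0539). Scd1 and Scd2 are closely related paralogs, so reads can be divided uncertainly between them. The fatty acid synthase Fasn, at 772 ± 9.49 and 774 ± 142 CPM (SD, n = 3 each), had a log2 fold change of -0.04 (adjusted p = 0.899). The acetyl-CoA carboxylase Acaca, at 157 ± 13.2 and 123 ± 14.4 CPM (SD, n = 3 each), was the only member with every RasHIGH culture below every control culture and did not pass (log2 fold change -0.40, adjusted p = 0.0811). Acly, Acss2 and Me1, the malic enzyme that supplies NADPH, did not pass.

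**Figure D2:**
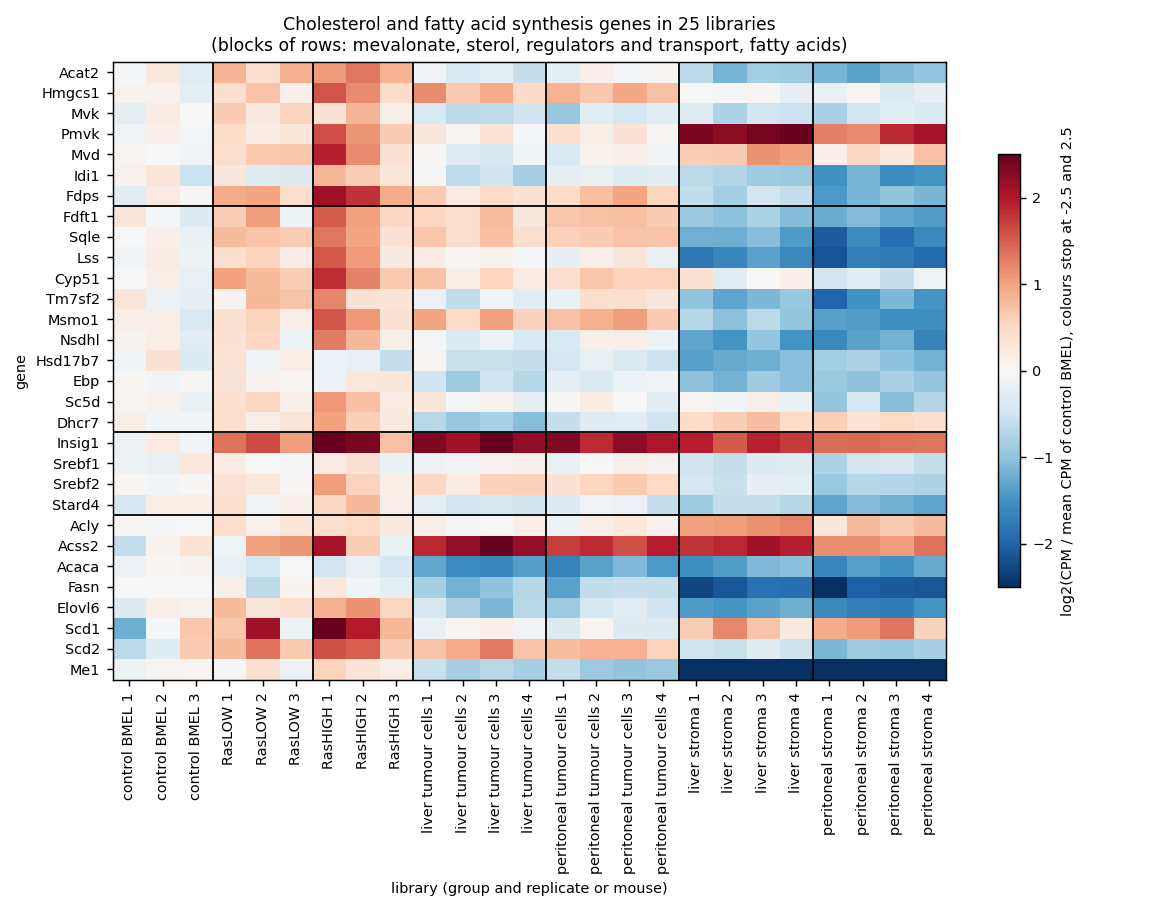
Heat map of the 30 genes, ordered by role, in the 25 libraries, with colour giving log2(CPM divided by the mean control CPM) and saturating at the ends of its scale. RasHIGH 1 and RasHIGH 2 are raised over most of the sterol genes, RasHIGH 3 less so. The stroma columns are low for most genes but not for Pmvk, Dhcr7, Acly, Insig1, Acss2, Scd1 and Mvd. Hmgcs1, and in liver stroma Cyp51 and Sc5d, lie near the control level.

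RasLOW cells differed from control cells at fewer genes. Of the 30 genes, 3 were higher and 0 lower, where 1.92% of all genes tested were higher and 4.05% lower, and the median log2 fold change of the 30 was 0.37 beside 0.01 over all genes. Insig1 was at 100.0, 122 and 81.3 CPM in RasLOW cultures 1 to 3, all above the control range of 35.2 to 44.9 CPM, and rose by 1.34 ± 0.19 on the log2 scale (SE, adjusted p = 0.0129). Cyp51 was at 172, 149 and 131 CPM, above all 3 controls, and rose by 0.78 ± 0.15 (SE, adjusted p = 0.0314). Sqle was at 87.5, 94.7 and 77.4 CPM in control and 149, 142 and 133 CPM in RasLOW cultures, and rose by 0.68 ± 0.13 (SE, adjusted p = 0.0301). In 16 of the 30 genes all RasLOW cultures were above all controls and in 14 the groups overlapped. Srebf1 was at 148, 128 and 126 CPM (log2 fold change 0.02, adjusted p = 0.960) and Srebf2 at 357, 336 and 287 CPM (log2 fold change 0.19, adjusted p = 0.493).

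RasHIGH and RasLOW cells were not told apart at any single gene of the 30, while most log2 fold changes leaned toward RasHIGH. The median of the 30 was 0.37 beside -0.03 over all genes, and 27 were above 0. None of the 30 passed by the quasi-likelihood test or by DESeq2 (0 by each), 5 had an unadjusted p under 0.05, and 0.0585% of all genes tested were higher and 0.0167% lower in RasHIGH cells. The largest log2 fold changes were 0.89 for Fdps (adjusted p = 0.386) and 0.86 for Pmvk (adjusted p = 0.306), and 27 genes overlapped between the groups. The 30 genes together summed to 3718 ± 343 CPM in control, 4931 ± 417 CPM in RasLOW and, with the widest spread, 6221 ± 1641 CPM in RasHIGH cultures (SD, n = 3 each). Genes of high CPM weigh most in this sum. Its largest part in Ras cultures was Scd2, which passed against control in neither population. Scd2 was at 441, 569 and 1084 CPM in control, 1212, 1791 and 1095 CPM in RasLOW and 2105, 1978 and 1080 CPM in RasHIGH cultures.

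The counts against control depended on single libraries. In the RasHIGH comparison, leaving out control 1, 2 or 3 left 3, 2 and 4 of the 12 calls in number, leaving out RasHIGH 2 left 4, and leaving out RasHIGH 3 gave 18. Calls over all genes fell as well, from 2789 to 1793, 1517 and 1680 without control 1, 2 or 3. Without single libraries Insig1 lost its call (without RasHIGH 2 or any 1 control), as did Cyp51 (any 1 control), Mvd (RasHIGH 2 or any 1 control) and Scd1 (RasHIGH 1, RasHIGH 2, control 1 or control 2), and only Fdps among the 5 genes with the largest changes did not. In the RasLOW comparison the count was 1 without RasLOW 1, RasLOW 3 or control 2, it was 0 without control 1 or control 3, and it was 5 without RasLOW 2, while calls over all genes went from 734 to between 148 and 218 without a control. Insig1 was then lost without control 1 (adjusted p = 0.0605) or control 3 (adjusted p = 0.0584). With the libraries of lane 4 alone, a choice made after seeing the data, there is a single control, with 0 calls over all genes for RasLOW, 316 for RasHIGH and 0 among the 30 genes in both. The log2 fold changes there were 1.41 for Insig1 and 0.96 for Cyp51 in RasLOW cells, and 2.22 for Insig1, 1.62 for Fdps and 1.48 for Cyp51 in RasHIGH cells. Hepatocyte markers moved as well, with 3 of the 3 tested lower in RasHIGH than in control cells and a summed level of 1414 to 2967 CPM in control, 405 to 1696 CPM in RasLOW and 477 to 1262 CPM in RasHIGH cells. Apob made up nearly all of that sum, at 1384, 2952 and 2595 CPM in control cultures 1 to 3. Mesothelium markers had 3 of the 3 tested lower, at sums of 1160 to 1340 CPM in control and 551.6 to 769 CPM in RasHIGH cells. Msln made up nearly all of this sum, at 1139, 1313 and 1290 CPM in control. The 1 fibroblast gene tested was lower and 1 endothelium and 1 adipocyte gene tested higher. The part of these markers in the results was not tested.

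**Figure D3:**
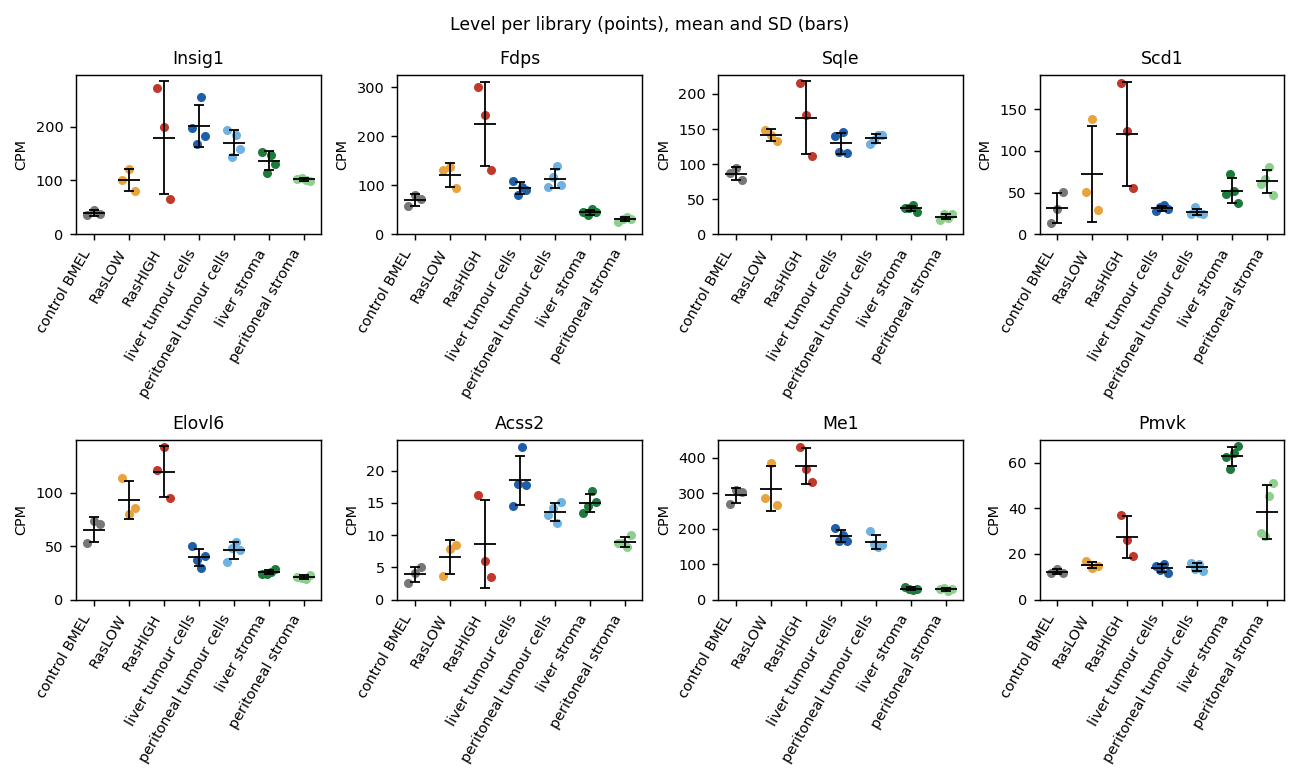
CPM of Insig1, Fdps, Sqle, Scd1, Elovl6, Acss2, Me1 and Pmvk in every library by group, with the group mean and SD as a bar. Insig1 stays high in tumour cells (144 to 256 CPM), Elovl6 falls below all Ras cultures there, and Pmvk is highest in liver stroma (57.3 to 67.2 CPM).

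Sorted tumour cells held less RNA of most of these genes than the cultured Ras cells, while Insig1, Srebf1 and Srebf2 did not pass the test. Tumour cells of each site were compared with the mean of RasLOW and RasHIGH cultures (4 libraries against 3 and 3), and both comparisons share those 6 cultures. In liver tumour cells 19 of 30 genes were lower and 1 higher, where 26.7% of all genes tested were lower and 26.7% higher, with a median log2 fold change of -0.68 beside -0.02 over all genes. In peritoneal tumour cells 16 were lower and 0 higher, where 24.1% of all genes were lower and 24.6% higher, with a median of -0.49 beside -0.02. The lower genes were 6 of 7 mevalonate, 7 of 11 squalene and sterol, 1 of 4 regulator and 5 of 8 fatty acid genes in the liver, and 5, 5, 1 and 5 in the peritoneum. Every liver tumour library was below every cultured Ras library in 11 genes, with overlap in 19, and in the peritoneum these numbers were 7 and 23.

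In fatty acid synthesis, Acaca, which makes malonyl-CoA, was at 139, 116 and 158 CPM in RasLOW and 112, 139 and 116 CPM in RasHIGH cultures, and at 63.6, 53.2, 50.96 and 60.2 CPM in liver and 49.7, 62.1, 73.3 and 58.0 CPM in peritoneal tumour cells of mice 1 to 4. No tumour library reached the lowest culture, and the log2 fold change was -1.18 ± 0.13 in the liver (SE, adjusted p = 4.21e-05) and -1.08 ± 0.14 in the peritoneum (SE, adjusted p = 0.000260). Elovl6 was at 114, 80.5 and 85.5 CPM in RasLOW and 122, 143 and 95.6 CPM in RasHIGH cultures, and at 50.0, 37.6, 30.0 and 40.6 CPM in liver and 34.9, 48.7, 54.1 and 46.6 CPM in peritoneal tumour cells. These groups too were separate, with log2 fold changes of -1.41 ± 0.18 (SE, adjusted p = 0.000101) and -1.19 ± 0.17 (SE, adjusted p = 0.000369).

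Me1 was at 287, 385 and 266 CPM in RasLOW and 430.1, 369 and 331 CPM in RasHIGH cultures, 201, 164, 182 and 166 CPM in liver tumour cells and 193, 156, 149 and 154 CPM in peritoneal tumour cells. It was lower in every tumour library than in any Ras culture, by a log2 fold change of -0.94 in the liver (adjusted p = 0.000201) and -1.06 ± 0.14 in the peritoneum (SE, adjusted p = 0.000241). Scd1 was at 50.7, 138 and 28.9 CPM in RasLOW and 181, 124 and 55.7 CPM in RasHIGH cultures, and within 24.4 to 34.6 CPM in all 8 tumour libraries. RasLOW 3 lay inside the tumour range at both sites, and the log2 fold changes were -1.57 ± 0.42 (SE, adjusted p = 0.00966) and -1.79 ± 0.44 (SE, adjusted p = 0.00724). Fasn was also lower, by log2 fold changes of -0.86 (adjusted p = 0.00241) and -0.69 (adjusted p = 0.0184).

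Acss2, which makes acetyl-CoA from acetate, was the member that was higher in liver tumour cells. It was at 3.62, 7.84 and 8.44 CPM in RasLOW and 16.3, 5.99 and 3.50 CPM in RasHIGH cultures, and at 14.5, 18.01, 23.7 and 17.9 CPM in liver tumour cells. Only RasHIGH 1 reached the tumour range, and the log2 fold change was 1.30 ± 0.38 (SE, adjusted p = 0.0139). Against RasHIGH cultures alone Acss2 did not pass in the liver (log2 fold change 1.11, adjusted p = 0.0746). Against RasLOW cultures alone it did (log2 fold change 1.47, adjusted p = 0.00356). In peritoneal tumour cells it was at 13.1, 14.2, 11.9 and 15.2 CPM and did not pass (log2 fold change 0.86, adjusted p = 0.0803). Acly and Scd2 passed at neither site, and Acly was at 341 ± 23.9 CPM in liver and 345 ± 37.4 CPM in peritoneal tumour cells (SD, n = 4 each).

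In the mevalonate branch, Acat2 was at 38.3, 28.3 and 39.6 CPM in RasLOW and 44.9, 53.2 and 39.0 CPM in RasHIGH cultures, and at 20.5, 16.3, 17.98 and 14.4 CPM in liver tumour cells. All 4 were below all 6 cultures, with a log2 fold change of -1.21 ± 0.16 (SE, adjusted p = 0.000113). Mvd was at 19.4, 23.0 and 23.1 CPM in RasLOW cultures and at 11.3, 15.4, 15.9 and 14.0 CPM in peritoneal tumour cells, below RasLOW and below the 19.1 CPM of the lowest RasHIGH culture, with a log2 fold change of -0.98 ± 0.25 (SE, adjusted p = 0.00963). In the liver Mvd changed by -1.12 (adjusted p = 0.00360) and Mvk by -1.02 (adjusted p = 0.000513). Idi1 and Pmvk were lower at both sites too. Fdps was lower in the liver (log2 fold change -0.80, adjusted p = 0.00834) and missed the threshold in the peritoneum (log2 fold change -0.53, adjusted p = 0.0653). Hmgcs1 passed at neither site, at 153 ± 32.7 CPM in liver and 151 ± 13.5 CPM in peritoneal tumour cells (SD, n = 4 each).

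In the sterol branch, Dhcr7, which catalyses a last step to cholesterol, was at 23.8, 20.1 and 22.0 CPM in RasLOW and 35.7, 27.0 and 20.8 CPM in RasHIGH cultures, and at 11.0, 9.20, 10.2 and 8.53 CPM in liver tumour cells. The groups were far apart, with a log2 fold change of -1.34 ± 0.16 (SE, adjusted p = 7.20e-05), and in the peritoneum it was -0.86. Lss, Nsdhl, Sc5d and Ebp were lower at both sites and Cyp51 and Tm7sf2 in the liver only by the test, and the difference between the sites itself is given further on. Sqle, Fdft1 and Msmo1 did not pass at either site, and Sqle was at 139.5, 117, 145 and 116 CPM in liver tumour cells (log2 fold change -0.24, adjusted p = 0.231). Stard4 was lower at both sites.

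**Figure D4:**
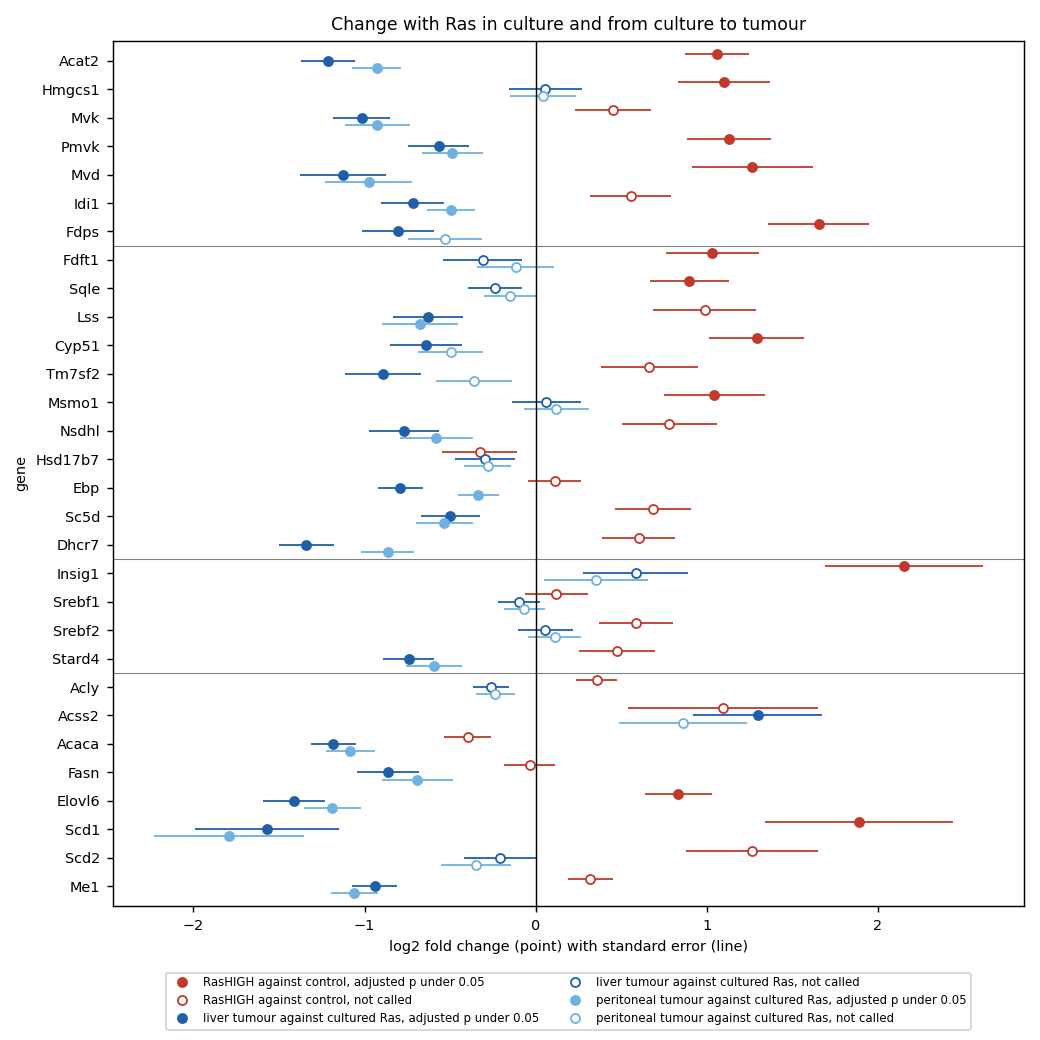
Log2 fold change with its SE (bars) of each of the 30 genes for RasHIGH against control cells and for liver and peritoneal tumour cells against cultured Ras cells; filled points had an adjusted p under 0.05. Most sterol genes lie right of 0 in culture and left of 0 in tumours, and Insig1 lies right of 0 in all 3 comparisons but is filled only in culture.

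Of the regulators and transport genes, Insig1, Srebf1 and Srebf2 did not pass at either site. Insig1 was at 198, 168, 256 and 183 CPM in liver tumour cells and 194, 144, 184 and 158 CPM in peritoneal tumour cells, above all RasLOW cultures and overlapping RasHIGH. Its log2 fold change was 0.58 in the liver (adjusted p = 0.129) and 0.35 in the peritoneum (adjusted p = 0.360). Srebf1 was at 116, 121, 138 and 142 CPM in liver and 115, 130.1, 143 and 138 CPM in peritoneal tumour cells, overlapping the cultures (log2 fold change -0.10, adjusted p = 0.514, and -0.07, adjusted p = 0.663). Srebf2 was at 399, 318, 419 and 419 CPM and at 361, 406, 441 and 397 CPM (log2 fold change 0.06, adjusted p = 0.784, and 0.11, adjusted p = 0.572).

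The choice of cultured cells set the size of the difference. Against RasHIGH cultures alone, 19 genes were lower and 0 higher in liver tumour cells (22.1% and 23.0% of all genes) and 17 lower and 0 higher in peritoneal tumour cells (18.6% and 19.3%). Against RasLOW cultures alone, 13 were lower and 2 higher in the liver (27.3% and 26.0%) and 10 lower and 3 higher in the peritoneum (24.6% and 23.7%). The higher genes were Insig1 and Acss2 at both sites and Msmo1 in the peritoneum. Insig1 was higher than in RasLOW by 0.99 in the liver (adjusted p = 0.00208) and 0.76 in the peritoneum (adjusted p = 0.00786). Against RasHIGH alone its log2 fold changes were 0.17 and -0.06, and it did not pass. Against control cultures, which carry no Ras vector, 8 were lower and 10 higher in the liver (34.2% and 34.1%) and 5 lower and 10 higher in the peritoneum (31.0% and 32.5%), and the medians over the 30 genes were 0.01 and 0.03. Higher than in control at both sites were Insig1 (log2 fold change 2.37 in the liver, adjusted p = 4.30e-07, and 2.14 in the peritoneum, adjusted p = 6.89e-06), Acss2 (2.25 and 1.82), Scd2, Hmgcs1, Msmo1, Sqle, Fdft1, Fdps, Cyp51 and Srebf2. Lower at both sites were Acaca (-1.45 in the liver, adjusted p = 8.51e-07, and -1.35 in the peritoneum), Fasn, Elovl6, Me1 and Dhcr7. Against control, Mvd at -0.02 in the peritoneum (adjusted p = 0.898) and Acat2 at -0.29 in the liver (adjusted p = 0.117) lost their calls. Scd1, the gene with the largest fall against the Ras cultures, lost its call at both sites, at 0.0002 in the liver (adjusted p = 0.9996) and -0.22 in the peritoneum (adjusted p = 0.615).

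Leaving out single libraries kept the liver count between 16 and 21. The peritoneal count of 16 was 9 without the tumour cells of mouse 4 and 10 without those of mouse 1. Calls over all genes were then 5051 and 5094, beside 6341 in the main fit. Growth in the mouse, dissociation, sorting and sequencing lane differ together between tumour cells and cultures, and these cannot be told apart. All 10 genes of a dissociation and sorting response list, the immediate early and heat shock genes, were higher in liver tumour cells and 9 of 10 in peritoneal tumour cells, with sums of 324 to 1892 CPM in Ras cultures against 4260 to 5769 and 3761 to 6506 CPM. All 8 leukocyte and macrophage markers were higher too, at summed levels of 19.7 to 56.7 CPM in all cultures, 71.2 to 318.5 CPM in tumour cells and 8568 to 15125 CPM in stroma. Summed fibroblast markers were between 0.673 and 9.79 CPM in cultures, 38.2 to 58.7 CPM in liver and 217.6 to 1506 CPM in peritoneal tumour cells, highest in mouse 1. Of the other marker lists, endothelium had 5 of 5 tested genes higher in the liver and 4 of 4 in the peritoneum, and hepatocyte markers 3 higher and 1 lower of 5 and 1 higher and 1 lower of 3. Progenitor markers had 2 higher and 0 lower of 7 in the liver and 3 higher and 0 lower of 7 in the peritoneum. Mesothelium had 0 higher and 2 lower of 3 at each site, and adipocytes 1 gene tested, lower in the liver and not called in the peritoneum. Over all genes tested, 26.7% were higher and 26.7% lower in the liver, and 24.6% and 24.1% in the peritoneum. The part of these markers in the results was not tested. In such bulk samples fewer cells of a type and less RNA per cell cannot be told apart.

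Neighbouring pathways are given by lists of other genes. Over all genes tested, 26.7% were higher and 26.7% lower in liver tumour cells than in cultured Ras cells. In peritoneal tumour cells the shares were 24.6% and 24.1%. Several counts of these short lists lie near such shares, so the counts describe the lists only. Of 12 genes of sterol sensing, efflux and storage, 5 were higher and 3 lower among 11 tested in liver tumour cells against cultured Ras cells, and 6 higher and 1 lower among 12 in the peritoneum. The highest were the sterol exporters Abca1 and Abcg1. Abca1 was at 0.0355 to 0.562 CPM in Ras cultures, in part below the level of 3 counts, 1.87, 2.54, 2.94 and 4.81 CPM in liver and 17.7, 2.49, 3.15 and 0.956 CPM in peritoneal tumour cells, and between 193 and 481 CPM in stroma. Abcg1 was at 0.225 to 0.839 CPM in liver tumour cells and 83.4 to 159 CPM in stroma. Among tumour cell libraries both were highest in the peritoneal tumour cells of mouse 1, which also had the highest sums of fibroblast markers (1506 CPM) and of leukocyte markers (318.5 CPM), and the part of these cells was not tested. Of 13 other genes of fatty acid, elongation and triglyceride synthesis, 10 were tested and 5 were lower and 1 higher at each site. The desaturase Fads2 was at 122 to 199 CPM in Ras cultures and at 47.6, 35.6, 36.3 and 37.0 CPM in liver tumour cells (log2 fold change -1.93), and Agpat2, an acyltransferase of triglyceride synthesis, at 28.5 to 42.9 CPM and 5.87, 6.25, 10.6 and 8.12 CPM (log2 fold change -2.21). Of 13 genes of fatty acid uptake and oxidation, 2 were higher and 3 lower among 11 tested in the liver and 3 higher and 1 lower among 12 in the peritoneum. In RasHIGH against control cells these lists had 3 higher and 2 lower, 1 higher and 0 lower, and 1 higher and 1 lower genes. Over all genes tested, 10.9% were higher and 11.7% lower there. The first list included Soat1, the enzyme that esterifies cholesterol (log2 fold change 1.23).

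Tumour cells of the liver and of the peritoneum differed at 1 of the 30 genes, with 0 higher and 1 lower in the liver, where 1.33% of all genes were higher and 1.87% lower. The gene was Ebp, a sterol isomerase, at 56.1, 42.5, 55.9 and 48.3 CPM in the liver and 66.8, 62.2, 71.7 and 75.7 CPM in the peritoneum, lower in every liver library (log2 fold change -0.45 ± 0.10, SE, adjusted p = 0.0479). With the mouse as a block, since both tumours came from the same animals, the adjusted p of Ebp was 0.0744 and 0 genes were called. Ebp also lost its call without the liver or peritoneal tumour cells of mouse 2, 3 or 4, and without the peritoneal tumour cells of mouse 1 the count was 3. Insig1, Srebf1 and Srebf2 did not pass, and 28 of 30 genes overlapped between the sites.

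Within each site, tumour cells held more RNA of most of these genes than the stromal cells sorted from the same tumours, and a small set was higher in stroma. In the liver 19 of 30 genes were higher and 5 lower in tumour cells, where 38.4% of all genes tested were higher and 39.4% lower, and in the peritoneum 23 were higher and 4 lower, where 39.5% were higher and 37.1% lower. The median log2 fold change of the 30 was 0.57 and 1.06, beside 0.00 and 0.07 over all genes. The higher genes in the liver were 3 of 7 mevalonate, 8 of 11 squalene and sterol, 4 of 4 regulator and 4 of 8 fatty acid genes, and in the peritoneum 4, 10, 4 and 5. Stroma held leukocyte and fibroblast markers together, so these values set the tumour cells against a mixture of cell types. The dissociation and sorting response list moved too, with 8 of 10 genes lower in tumour cells than in stroma in the liver and 10 of 10 in the peritoneum, at sums of 7431 to 9848 CPM in liver and 11827 to 14888 CPM in peritoneal stroma, and its part was not tested.

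**Figure D5:**
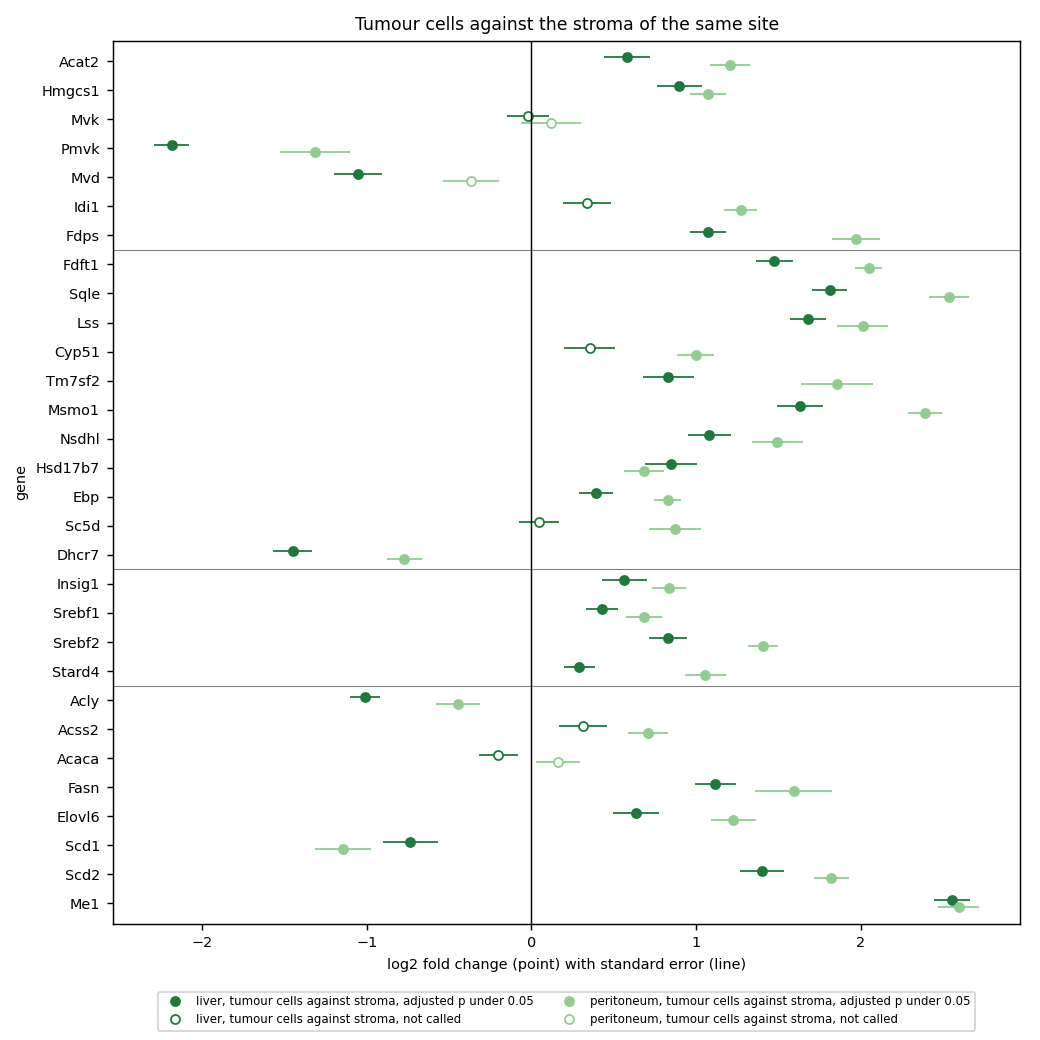
Log2 fold change with its SE (bars) of the 30 genes between tumour cells and stroma of the liver and of the peritoneum; filled points had an adjusted p under 0.05. Me1, Sqle, Msmo1, Fdft1 and Lss lie farthest to the side of tumour cells, and Pmvk, Dhcr7, Scd1 and Acly on the side of stroma at both sites.

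Me1 had the largest difference toward tumour cells. It was at 35.5, 28.8, 27.0 and 30.6 CPM in liver stroma and 30.2, 31.9, 24.0 and 29.8 CPM in peritoneal stroma, several-fold below every tumour library, with log2 fold changes of 2.55 ± 0.11 in the liver (SE, adjusted p = 1.03e-09) and 2.60 ± 0.12 in the peritoneum (SE, adjusted p = 9.53e-07). Sqle, Msmo1, Fdft1 and Lss followed. Sqle was at 37.6, 37.0, 41.4 and 32.4 CPM in liver stroma and 20.6, 28.8, 23.3 and 28.5 CPM in peritoneal stroma, with log2 fold changes of 1.81 ± 0.10 (SE, adjusted p = 1.54e-08) and 2.54 ± 0.12 (SE, adjusted p = 9.66e-07). Msmo1 was at 145, 102, 148 and 108 CPM in liver tumour cells against 44.1, 35.5, 46.1 and 37.3 CPM in liver stroma (log2 fold change 1.63), and at 121, 135, 149 and 114 CPM against 28.2, 27.5, 25.1 and 25.2 CPM in the peritoneum (log2 fold change 2.39).

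Fdft1 was at 77.5, 71.5, 90.6 and 64.7 CPM in liver tumour cells against 27.9, 26.0, 30.9 and 25.3 CPM in liver stroma (log2 fold change 1.48), and at 84.7, 89.0, 89.2 and 82.4 CPM against 22.7, 25.1, 21.6 and 20.2 CPM in the peritoneum (log2 fold change 2.05). Lss was at 54.1, 48.4, 50.9 and 45.6 CPM against 13.5, 15.2, 18.6 and 15.3 CPM in the liver (log2 fold change 1.68), and at 40.6, 52.5, 57.6 and 41.2 CPM against 10.6, 14.3, 13.9 and 12.3 CPM in the peritoneum (log2 fold change 2.01). Tumour and stromal libraries were separate in all of these. In the mm9 gene models 26.9% of the exonic bases of Fdft1 are shared with Ctsb on the opposite strand and 15.3% of those of Tm7sf2 with 1110014N23Rik on the same strand, and since the strand setting of the counting is not given in the sources used here, reads from these bases cannot be assigned with certainty.

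Pmvk ran the other way. It was at 62.7, 57.3, 64.2 and 67.2 CPM in liver stroma against 14.8, 12.9, 15.5 and 11.7 CPM in liver tumour cells, and at 29.3, 27.8, 45.4 and 51.2 CPM in peritoneal stroma against 16.01, 13.6, 15.7 and 12.4 CPM in peritoneal tumour cells. No stromal library reached down to a tumour library, with log2 fold changes of -2.18 ± 0.11 in the liver (SE, adjusted p = 3.30e-09) and -1.31 ± 0.21 in the peritoneum (SE, adjusted p = 0.000496). Dhcr7 was at 24.7, 27.2, 30.6 and 24.6 CPM in liver stroma and 27.0, 22.7, 24.8 and 24.0 CPM in peritoneal stroma, above all tumour libraries (log2 fold change -1.45, adjusted p = 3.18e-07, and -0.77, adjusted p = 0.000170). Acly was at 647, 662, 703 and 751 CPM in liver stroma and 395, 559, 505 and 558 CPM in peritoneal stroma (log2 fold change -1.01, adjusted p = 6.33e-07, and -0.45, adjusted p = 0.0141). Scd1 was at 48.2, 72.4, 51.4 and 37.4 CPM and 59.7, 66.3, 80.1 and 47.0 CPM in stroma (log2 fold change -0.73, adjusted p = 0.00175, and -1.15, adjusted p = 0.000277), and Mvd was higher in stroma of the liver, at 22.4, 22.7, 31.9 and 30.2 CPM (log2 fold change -1.05, adjusted p = 3.92e-05).

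The regulators were higher in tumour cells at both sites. Insig1 was at 154, 114, 148 and 131 CPM in liver stroma and 103, 104, 101 and 99.2 CPM in peritoneal stroma (log2 fold change 0.56, adjusted p = 0.00244, and 0.84, adjusted p = 9.19e-05). Srebf2 was at 208, 189.9, 244 and 238 CPM and at 148, 170.1, 168 and 164 CPM (log2 fold change 0.83, adjusted p = 3.34e-05, and 1.41, adjusted p = 3.14e-06). Srebf1 was at 91.6, 87.0, 103 and 105 CPM and at 74.4, 92.2, 98.2 and 85.8 CPM (log2 fold change 0.43, adjusted p = 0.00148, and 0.69, adjusted p = 0.000424). Srebf2 tumour libraries lay well above the stromal ones, while those of Srebf1 were closer. Of 12 genes of sterol sensing, efflux and storage, 3 were higher and 6 lower in tumour cells than in stroma at each site. Over all genes tested, 38.4% were higher and 39.4% lower in the liver, and 39.5% and 37.1% in the peritoneum.

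Stroma of the liver was higher than stroma of the peritoneum at 12 of the 30 genes and lower at 0, where 14.9% of all genes were higher and 18.5% lower, 3 genes from each of the 4 roles. The largest changes were those of Sc5d, a sterol desaturase, at 40.5, 35.9, 43.4 and 34.6 CPM in the liver and 19.8, 28.8, 18.4 and 23.1 CPM in the peritoneum (log2 fold change 0.74 ± 0.15, SE, adjusted p = 0.00406), and of Acss2, at 13.5, 14.5, 16.9 and 15.1 CPM and 8.79, 8.71, 8.13 and 10.0 CPM (log2 fold change 0.71 ± 0.12, SE, adjusted p = 0.00134). Both were separate between the sites. Pmvk (log2 fold change 0.67, adjusted p = 0.0201), Idi1, at 47.6, 46.0, 41.1 and 39.8 CPM against 26.8, 34.1, 25.4 and 27.1 CPM (log2 fold change 0.58, adjusted p = 0.00376), and Msmo1 (log2 fold change 0.58, adjusted p = 0.00215) followed, and Pmvk lost its call without the liver stroma of mouse 4 (adjusted p = 0.0522) or the peritoneal stroma of mouse 2 (adjusted p = 0.0512). With all 25 libraries in 1 fit, Acss2 (adjusted p = 0.0987) and Insig1 (adjusted p = 0.255) lost theirs. Srebf2 (log2 fold change 0.40, adjusted p = 0.0117) and Insig1 (log2 fold change 0.38, adjusted p = 0.0129) were higher and Srebf1 was not (log2 fold change 0.10, adjusted p = 0.504). Fibroblast markers summed to 4141 to 8510 CPM in liver stroma and 55603 to 83647 CPM in peritoneal stroma. Hepatocyte markers had 5 of 6 tested genes higher in liver stroma, at sums of 44.7 to 243 CPM against 13.6 to 25.3 CPM, leukocyte markers 4 of 8 higher and the dissociation list 4 of 10 lower. The part of these in the values was not tested.

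The difference between liver and peritoneum was not the same in tumour cells as in stroma. In a test of that difference itself, 12 of 30 genes had a lower liver-to-peritoneum ratio in tumour cells than in stroma and 0 a higher one, where 7.50% of all genes were lower and 6.79% higher. The largest were Tm7sf2, a sterol reductase (log2 difference -0.97 ± 0.27, SE, adjusted p = 0.0232), at 11.4, 8.23, 12.1 and 10.4 CPM in liver and 11.2, 17.0, 17.0 and 15.4 CPM in peritoneal tumour cells against 6.38, 5.05, 5.81 and 6.54 CPM and 3.13, 4.43, 5.82 and 4.52 CPM in stroma. Idi1 (log2 difference -0.88 ± 0.19, SE, adjusted p = 0.00650), at 73.4, 49.2, 53.8 and 43.0 CPM in liver and 64.3, 66.4, 61.9 and 62.8 CPM in peritoneal tumour cells, and Fdps (log2 difference -0.85 ± 0.19, SE, adjusted p = 0.00658), at 109, 80.8, 96.6 and 91.1 CPM and 96.1, 118, 139 and 101 CPM, came next. Fdps stroma was at 45.3, 38.7, 50.8 and 45.9 CPM in the liver and 25.8, 31.8, 35.2 and 31.4 CPM in the peritoneum, higher in every liver than in every peritoneal library, while its tumour libraries overlapped between the sites. Pmvk (log2 difference -0.82, adjusted p = 0.0337), Sc5d (log2 difference -0.78, adjusted p = 0.0206) and Srebf2 (log2 difference -0.53, adjusted p = 0.0286) passed as well, and Insig1 and Srebf1 did not. The count was 7 without the peritoneal tumour cells of mouse 1 or the peritoneal stroma of mouse 1 or 3, and 6 without the peritoneal stroma of mouse 4. It was 1 with all 25 libraries in 1 fit and 0 at the thresholds of the study. Calls over all genes were then 1180 and 1624, beside 2191 in the main fit. Pmvk and Srebf2 each lost their call in 13 of 22 alternatives, Sc5d in 7, Tm7sf2 in 4, Fdps in 2 and Idi1 in 1.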

How the data were processed

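RNA was extracted, treated with DNase, made into NuGEN Universal Plus mRNA-seq libraries and sequenced on an Illumina HiSeq, per the labels and the study's methods. The authors aligned reads with TopHat2 to mm9 and deposited 1 table of raw read counts per gene for 25 libraries; the submitters' processing notes list FastQC, Bowtie 0.12.2 and the builds mm8 and mm10 instead, so the build is uncertain. The counting program, its strand setting and its annotation are not given in the sources used here. The deposited counts were not normalized. The study's methods call the cultures and the sorted samples independent, so p-values measure the spread between cultures or mice. Sorted samples of the same mouse are paired, and the main fits did not use that pairing.

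Groups came from the sample labels. Genes were filtered with filterByExpr (minimum count 10), scaled by TMM and tested with edgeR 4.0.16 (quasi-likelihood F-test, R 4.3.3), using only the groups of each comparison, adjusting p by Benjamini-Hochberg over every gene tested; a call is an adjusted p under 0.05. The study's methods used DESeq pairwise, and DESeq2 1.42.0 was run as an alternative. The fits were tested on simulated data. CPM values in the text use TMM factors over all libraries, and a detection floor of 3 counts covers counting error only. The same mouse number marks the same animal, which pairs the sorted samples (correlation of deviations between -0.17 and 0.06 for liver and peritoneal tumour cells, 0.13 and 0.31 for liver tumour cells and stroma, 0.07 and 0.29 for the peritoneum, and -0.01 and 0.36 for both stromas). The members and lists were chosen with earlier results of these data known. Values per library are given, in each comparison, for up to 5 called members with the largest log2 fold change in each direction and always for Insig1, Srebf1 and Srebf2, and other lists name at most 3 called genes per direction. The lists were sterol sensing, efflux and storage; other fatty acid and triglyceride synthesis; fatty acid uptake and oxidation; dissociation response; and markers of progenitors, hepatocytes, leukocytes, fibroblasts, endothelium, mesothelium and adipocytes. Gene models for exon overlap were NCBIM37 (29 of 30 members matched), and promoter windows were RefSeq GRCm38.p6. The alternatives tried were another scaling, no filter, DESeq2, all libraries in 1 fit, the thresholds of the study, the replicate block, other reference cultures and leaving out each library.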

Additional observations from a re-analysis of the deposited data

Results flagged for a closer look

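In 6 of the 120 sets of 4 libraries tested (each gene in each sorted group), the library farthest out lay past Dixon's critical value for 4 values, and chance gives about 1 in 20. Hsd17b7 in liver tumour cells of mouse 1 was at 26.96 CPM, with the other mice between 16.99 and 17.48 CPM. In peritoneal tumour cells Fasn was at 303.5 CPM in mouse 1, with the others between 502.6 and 515.5 CPM, and Me1 was at 193.3 CPM in mouse 1, with the others between 149.3 and 156.3 CPM. Fasn was also low in the peritoneal stroma of mouse 1, at 106.0 CPM against 176.4 to 188.1 CPM. Scd1 in peritoneal tumour cells was at 32.57 CPM in mouse 2, with the others between 24.41 and 25.24 CPM. Scd2 in liver stroma was at 568.6 CPM in mouse 3, with the others between 476.3 and 491.1 CPM. The peritoneal tumour cells of mouse 1 also had the highest summed fibroblast markers (1506 CPM) and leukocyte markers (318.5 CPM) of the tumour libraries, and the part of these in the Fasn and Me1 values was not tested.

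For 12 genes the log2 ratio of liver to peritoneum differed between tumour cells and stroma in a test of that difference, always lower in tumour cells. The differences were -0.97 for Tm7sf2, -0.88 for Idi1, -0.85 for Fdps, -0.82 for Pmvk, -0.78 for Sc5d and -0.72 for Stard4. They were -0.71 for Msmo1, -0.67 for Sqle, -0.63 for Dhcr7, -0.53 for Srebf2, -0.52 for Fdft1 and -0.51 for Acly.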

How the results depend on the processing

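Counts of called members out of 30 are given first as reported. RasLOW against control (3) became 6 with DESeq2 and 6 with all 25 libraries in 1 fit. It was 0 at the thresholds of the study, 1 with a replicate block and 0 to 5 on leaving out 1 library. Calls over all genes went from 734 to 1622 with DESeq2, 2440 in 1 fit, 542 at the study's thresholds and 295 with the block. RasHIGH against control (12) became 23 with all libraries in 1 fit, 18 with DESeq2 and 12 with the replicate block. It was 2 at the study's thresholds and 2 to 18 on leaving out 1 library. Calls over all genes went from 2789 to 4347 in 1 fit, 3474 with DESeq2, 2203 with the block and 1190 at those thresholds. RasHIGH against RasLOW (0) became 2 with all libraries in 1 fit, where calls over all genes went from 9 to 917. At the study's thresholds, against cultured Ras cells, the count fell from 20 to 8 in liver and from 16 to 4 in peritoneal tumour cells. It fell from 24 to 13 in liver tumour cells against stroma. It fell to 0 for liver against peritoneal tumour cells, for the same contrast of stroma (12) and for the site difference between tumour cells and stroma (12). Calls over all genes went, in the same order, from 6982 to 3474, from 6341 to 3124 and from 11376 to 6437. They went from 419 to 460 between tumour sites, from 4926 to 2107 between stromas and from 2191 to 1624 for the site difference. Leaving out 1 library gave 16 to 21 in liver tumour cells and 9 to 18 in peritoneal tumour cells against cultured Ras cells, 24 to 26 and 27 to 28 in tumour cells against stroma, 10 to 14 between stromas, 0 to 3 between tumour sites and 6 to 14 for the site difference, which was 1 with all libraries in 1 fit. Liver against peritoneal tumour cells (1) became 3 with DESeq2 and 0 with the mouse as a replicate block. Calls over all genes were then 1152 and 102. Apart from this count and that of RasLOW against control, the block moved no count of called members by over 1.5 times. Culture numbers do not pair the cultures (correlation of deviations between -0.31 and -0.02 for RasLOW and between -0.16 and 0.18 for RasHIGH with control), and with that block Mvd (adjusted p = 0.0502) and Scd1 (adjusted p = 0.1195) missed the threshold in RasHIGH cells. Of 896 alternative values for the named genes, 776 kept their direction and side of the threshold, 119 kept their direction but lost the call, and 1 changed sign: Scd1 in liver tumour cells against control cultures alone, at 0.0002 on the log2 scale (adjusted p = 0.9996). The causes of these changes were not tested. Each of the 30 genes lay above 3 counts in every library, and an effect of depth on the results was not tested.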
